A study of Caenorhabditis elegans with 6 samples.

Results

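The loss of *hlh-11* was described here by the libraries of *hlh-11* knock-out (KO) worms set against those of wild-type worms, which are 4 of the 6 libraries of the series, over all 85 genes of the deposited table. Both groups were cultures of the nematode *Caenorhabditis elegans*, synchronized at the young adult stage, grown on *E. coli* OP50 at 20 °C and harvested whole, about 2000 worms to a sample. The *hlh-11* KO worms (2 libraries) carry the CRISPR/Cas9 allele *ko1*, a frameshift in the second exon that all *hlh-11* transcripts share, as a single edited line in the N2 background. The wild-type worms (2 libraries) were N2, the standard laboratory strain, without the allele. The other libraries came from worms that over-express *hlh-11* (OE), and here they entered only the estimate of the spread. Each value is an RPKM, in which the reads counted for a gene are scaled by its length and by the total of the library.

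HLH-11 is a basic helix-loop-helix protein, the worm relative of mammalian AP-4. Proteins of this class pair up and bind short DNA motifs called E-boxes near the genes they control. The intestine of the worm, where the study's reporter experiments place the action of HLH-11 on a lipid catabolism gene, is at once its gut, its liver and its fat tissue, and it makes digestive proteases, lectins, lipid carriers and antimicrobial proteins.

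The table is not a sample of the genome. In all 85 genes the KO mean and the OE mean fell to either side of the wild-type mean, so the genes had been chosen on these same libraries, and every count below describes that choice and is no independent evidence of a change. The *hlh-11* transcript was not analysed here, so the edit could not be checked at its target. The RPKM values led back to whole reads, with totals of 17411299 and 18986861 reads for *hlh-11* KO and of 21822815 and 16538554 reads for the wild type. The median gene was covered by 1414 and 1643 reads in *hlh-11* KO, and by 1395 and 955 reads in the wild type. The least covered gene, *dod-24*, had 16 reads in 1 KO library. Because the samples were whole worms, more cells of a type and more RNA per cell cannot be told apart for any gene named below. Separate cultures are not described for the replicates, so the p-values measure only the spread between these libraries, which may be technical.

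In *hlh-11* KO, 60 of the 85 genes were higher than in the wild type (70.6%) and 20 were lower (23.5%), at an adjusted p under 0.05 in limma fitted to log2(RPKM + 0.5). The other 5 did not pass, so 94.1% of the table was called. The sizes were mostly moderate. The median absolute difference was 0.68 on the log2 scale, 16 genes were at least 2-fold higher (18.8%) and 7 at least 2-fold lower (8.24%). The median difference was 0.77 for the 60 genes with a higher mean in KO, all of which passed. For the 25 genes with a lower mean in KO, 20 of which passed, it was -0.53. The extremes were 3.43 for *col-95* and -3.01 for *dod-24*. In 84 genes (98.8%) both KO values lay on the same side of both wild-type values. An exact permutation test of 2 libraries against 2 cannot go below p = 0.333, so the calls rest on 1 spread pooled over all genes, which gave every log2 difference the same standard error of 0.16. Very small p-values, such as 2.54e-58 for *col-95*, follow from this pooling. A difference on this scale understates the change of genes with few RPKM. Leaving out a library keeps only the other replicate of its group and raises the standard error. A call can then be lost though its difference does not shrink. Without KO replicate 1, 10 genes were lower instead of 20, and 50 were higher. With each library centred on the median of the table, which shifts every KO difference down by 0.34, the calls were 38 higher and 25 lower, so that 60.3% of the calls were increases, against 75% as deposited. Most of the chosen genes were higher in KO, so this median moves with their own change. Centring was bound to weaken increases and deepen decreases, here and for each gene below. It cannot decide whether a small increase holds.

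**Figure D1:**
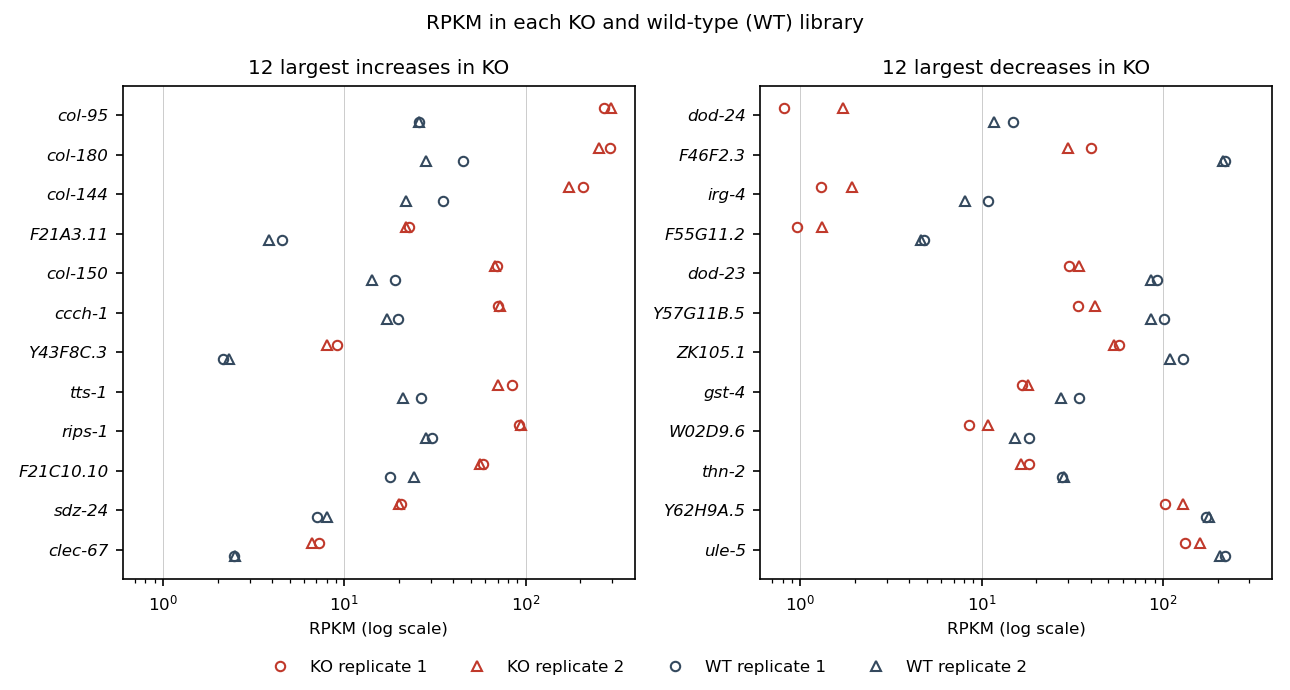
RPKM (log axis) of the 12 genes with the largest increase and the 12 with the largest decrease in *hlh-11* KO, with each KO library in red and each wild-type (WT) library in dark blue; circles are replicate 1 and triangles replicate 2. The 24 genes were picked among those with both KO libraries to the same side of both wild-type libraries, as 98.8% of the table had. At 1 end *col-95* had 271 and 297 RPKM in KO against 25.8 and 25.9 RPKM in the wild type. At the other end *dod-24* had 0.81 and 1.72 RPKM in KO against 14.9 and 11.7 RPKM in the wild type.

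The largest increases belonged to cuticle collagens, the structural proteins that the skin of the worm secretes into its cuticle. All 7 collagen genes of the table rose in *hlh-11* KO, where 70.6% of the table did. Their median log2 difference was 2.03, against 0.52 over all 85 genes. *col-95*, on chromosome III of WBcel235 from 11703994 to 11705091, had 271 and 297 RPKM in KO and 25.8 and 25.9 RPKM in the wild type, a ratio of means of 11 in KO over wild type. *col-180*, on chromosome X from 11711378 to 11712280, had 293 and 253 RPKM in KO and 45.3 and 28.2 RPKM in the wild type. *col-144*, on chromosome V from 9159586 to 9160642, had 208 and 175 RPKM in KO and 35.1 and 21.8 RPKM in the wild type. The wild-type libraries of *col-180* and *col-144* stood farthest apart of all genes, with replicate 1 at 1.61 times replicate 2 in both, yet the nearest KO and wild-type libraries still differed 5.58-fold for *col-180* and 4.97-fold for *col-144*. *col-150* had 69.4 and 67.9 RPKM in KO and 19.0 and 14.2 RPKM in the wild type. These 4 collagens were of modest level in the wild type, with means of 16.6 to 36.7 RPKM, and rose by 2.03 to 3.43 on the log2 scale.

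The other 3 collagens were the most abundant genes of the table and moved least of the 7. *col-139* had 2591 and 2899 RPKM in KO and 2183 and 1954 RPKM in the wild type. *col-129* had 2325 and 2474 RPKM in KO and 1913 and 1744 RPKM in the wild type. *col-81* had 2260.3 and 2508 RPKM in KO and 1803 and 1615 RPKM in the wild type. None of the 3 overlapped between groups, as in 98.8% of the table, but the ratios of means were only 1.31 to 1.39. Their calls were the first to go, without KO replicate 2 and with centred libraries. In both cases the collagens of modest level kept theirs, and with centred libraries 4 of the 7 were higher. *col-129* also did not pass without KO replicate 1 or WT replicate 2 (adjusted p = 0.0505 and 0.0715 from limma), nor *col-139* without WT replicate 2 (0.0723). Summed over the 7 genes, collagen reads in RPM, which scales by the library total but not by gene length, were 8436 and 9129 RPM in KO and 6368 and 5717 RPM in the wild type. Collagens are a large family of similar sequences, whose reads may be shared between members.

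Genes of the sperm moved together and by nearly the same factor. The major sperm proteins, encoded by the *msp* genes, drive the crawling of nematode sperm and signal to the oocyte, and in hermaphrodites their transcripts are made in the germ line before oogenesis. All 6 sperm genes of the table rose, where 70.6% of the table did, within a narrow range of 0.78 to 0.97 on the log2 scale. Their median was 0.87, against 0.52 over all 85 genes. *msp-3* had 158 and 147 RPKM in *hlh-11* KO and 83.4 and 72.3 RPKM in the wild type. *msp-33* had 258 and 284 RPKM in KO and 164 and 131 RPKM in the wild type. *msp-45* had 224 and 229.6 RPKM in KO and 142 and 107 RPKM in the wild type. In each of them the lower KO library stood at least 1.58 times above the higher wild-type library, and wild-type replicate 1 was the higher of the wild-type libraries. *msp-50* had 243 and 245 RPKM in KO and 149 and 119 RPKM in the wild type. *msp-49* and *nspd-5*, a small sperm gene, rose by 0.86 and 0.78 and were named after their values were seen. Together the 6 genes took 549 and 566 RPM in KO and 343 and 270.3 RPM in the wild type. All 6 passed in each of the 13 alternative settings tried. The *msp* copies are almost identical in sequence and reads may be split between them, so they are not 5 separate measurements. Collagen and sperm transcripts both mark stages of development, and both were higher in KO worms. The table holds no gene of the oocyte, yolk and embryo list, and the part of developmental age in these and the other results was not tested.

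The innate immune genes outside the lectins went mostly the other way and hold the deepest decreases. Of 7 in the table, 5 fell and 2 rose, where 23.5% of the whole table was lower and 70.6% higher. Their median log2 difference was -1.45, against 0.52 over all 85 genes. The *dod* genes were named for acting downstream of the insulin-pathway factor DAF-16, and *dod-24* and *irg-4*, an infection response gene, are known to be induced by pathogens in the intestine. *dod-24* (chromosome IV of WBcel235, 12940106 to 12941354) had 0.81 and 1.72 RPKM in *hlh-11* KO and 14.9 and 11.7 RPKM in the wild type, which is 16 and 37 reads against 370.0 and 220.0 reads. *irg-4* (chromosome IV, 12435833 to 12438236) had 1.30 and 1.93 RPKM in KO and 10.9 and 8.13 RPKM in the wild type. *F55G11.2* (chromosome IV, 12967445 to 12969289) had 0.96 and 1.32 RPKM in KO and 4.80 and 4.66 RPKM in the wild type. In these 3 genes the KO libraries were also the least alike, with KO replicate 1 at 0.472 of KO replicate 2 for *dod-24*, 0.675 for *irg-4* and 0.727 for *F55G11.2*, but no KO library was above 0.283 of the lower wild-type library.

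*dod-23* fell by 1.45 on the log2 scale, with 30.4 and 34.6 RPKM in KO and 92.5 and 86.4 RPKM in the wild type. *thn-2*, which encodes a thaumatin-like protein, fell by 0.68, with 18.3 and 16.5 RPKM in KO and 27.8 and 28.4 RPKM in the wild type. All 5 decreases passed in each of the 13 alternatives. The 2 increases were named after their values were seen. *spp-18*, a saposin-like protein gene, had 52.9 and 50.9 RPKM in KO and 33.01 and 28.955 RPKM in the wild type. *endu-2*, an endoribonuclease gene, had 39.3 and 38.4 RPKM in KO and 27.5 and 26.4 RPKM in the wild type. Neither gene overlapped between groups, as in 98.8% of the table. However, *spp-18* did not pass when tested against its own spread (adjusted p = 0.0587 from limma without empirical Bayes), and *endu-2* did not pass with centred libraries (adjusted p = 0.284). The immune list as a whole took 143 and 144 RPM in KO and 195 and 179.6 RPM in the wild type.

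**Figure D2:**
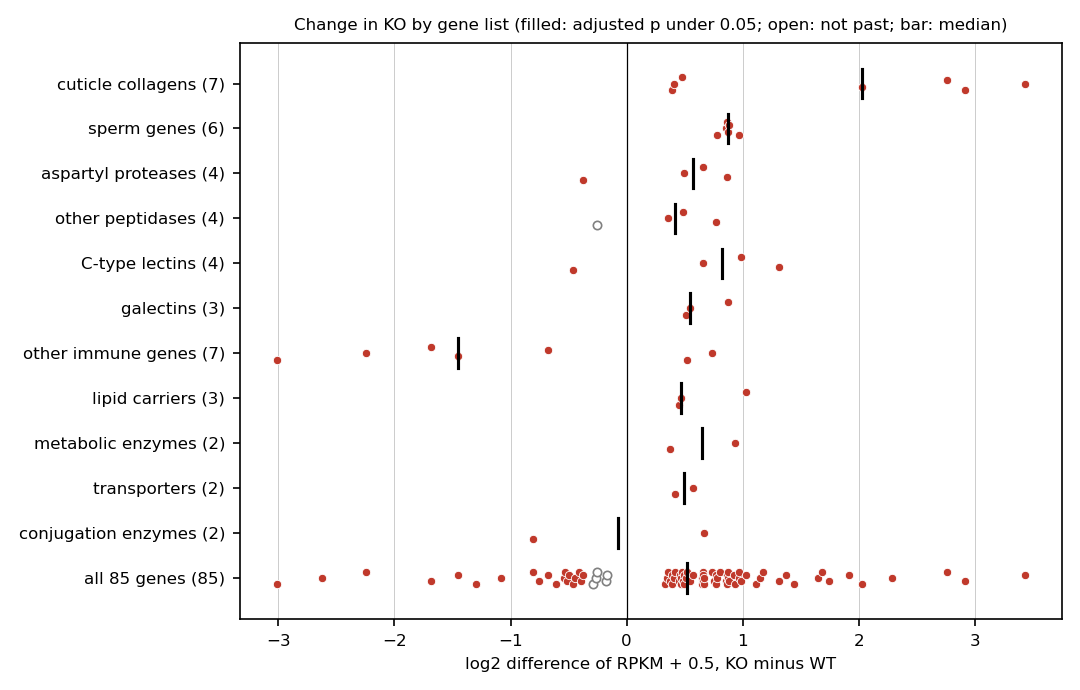
Log2 difference of RPKM + 0.5 (KO minus wild type, horizontal axis) of the genes of 11 lists and of all 85 genes, 1 point a gene, with the number of members in brackets; filled points passed an adjusted p of 0.05 in limma, open points did not, and the vertical bar is the median. The immune genes outside the lectins lie mostly left of 0 with a median of -1.45, while the 7 collagens, the 6 sperm genes and the 3 galectins lie wholly to the right.

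Lectins bind sugars on the surface of microbes and host cells. Of the 4 C-type lectin genes, 3 rose and 1 fell, near the 70.6% higher and 23.5% lower of the whole table, and the median log2 difference was 0.82, against 0.52 over all 85 genes. *clec-67* had 7.26 and 6.63 RPKM in *hlh-11* KO and 2.47 and 2.50 RPKM in the wild type, from 85 to 260.0 reads per library. *clec-85* had 58.4 and 60.9 RPKM in KO and 30.8 and 29.2 RPKM in the wild type. *clec-63*, by far the most abundant of the 4, had 856 and 828 RPKM in KO and 545 and 519 RPKM in the wild type. The 3 rising lectins showed close replicates in both groups, and the smallest fold between any KO and any wild-type library was 1.52, for *clec-63*; its call alone of the 3 was lost with centred libraries (adjusted p = 0.0510 from limma). *clec-10* fell by 0.46 on the log2 scale, with 11.3 and 12.9 RPKM in KO and 18.0 and 15.7 RPKM in the wild type, and did not pass without KO replicate 1 or WT replicate 1 (adjusted p = 0.0854 and 0.0549), when no C-type lectin was lower.

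All 3 galectin genes, which encode lectins for galactose-bearing sugars, rose, where 70.6% of the table did, and their median of 0.55 was close to the 0.52 of all 85 genes. *lec-9* had 327 and 309.9 RPKM in KO and 169 and 179 RPKM in the wild type, a log2 difference of 0.87. *lec-2* had 97.7 and 98.5 RPKM in KO and 70.7 and 63.2 RPKM in the wild type. *lec-10* had 323 and 327 RPKM in KO and 233 and 224 RPKM in the wild type. KO replicate 1 was at 0.99 to 1.05 of KO replicate 2 in the 3 galectins, and with centred libraries *lec-9* alone was called.

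Of the 4 aspartyl protease genes, whose products digest proteins in the gut lumen and in lysosomes, 3 rose and 1 fell, near the 70.6% and 23.5% of the whole table. *asp-4*, a lysosomal cathepsin D-like protease, had 373 and 371 RPKM in *hlh-11* KO and 212 and 195.9 RPKM in the wild type, a log2 difference of 0.87. *asp-3*, another cathepsin D-like protease, had 1164 and 1124 RPKM in KO and 714 and 736 RPKM in the wild type. *asp-5* had 632 and 655 RPKM in KO and 449 and 467 RPKM in the wild type. The 3 rising proteases were among the abundant genes of the table, and their libraries did not overlap, as in 98.8% of the table. With centred libraries *asp-5* was not called (adjusted p = 0.359 from limma). *asp-13*, at 122 and 133 RPKM in KO and 170 and 160.4 RPKM in the wild type, fell by 0.38, and this did not pass without KO replicate 1 or WT replicate 1 (adjusted p = 0.148 and 0.0703). Summed reads of the 4 were 3213 and 3194 RPM in KO and 2149.6 and 2168 RPM in the wild type.

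Among the other peptidases 3 of 4 rose, near the 70.6% of the whole table, and their median of 0.42 lay below the 0.52 of all 85 genes. *tag-196*, a cathepsin F-like cysteine protease gene, had 49.5 and 44.2 RPKM in KO and 28.6 and 25.8 RPKM in the wild type, a log2 difference of 0.77. The homologs of cathepsin A had opposite signs. *ctsa-1.2* had 231 and 214 RPKM in KO and 158 and 159 RPKM in the wild type. *ctsa-1.1* had 249.6 and 251 RPKM in KO and 312 and 286 RPKM in the wild type, a difference of -0.25 that did not pass (adjusted p = 0.109). These are paralogs whose reads may be shared, and both calls move with the processing: *ctsa-1.2* did not pass without KO replicate 1 (adjusted p = 0.0541) or with centred libraries, and *ctsa-1.1* passed as lower in 5 alternatives, with an adjusted p of 4.52e-04 to 0.0447. *lap-2*, a leucine aminopeptidase gene, had 235.025 and 216 RPKM in KO and 174 and 179 RPKM in the wild type; its call at 0.35 was lost without KO replicate 1 (when 1 of the 4 peptidases was higher), KO replicate 2 or WT replicate 1, with an adjusted p of 0.0561 to 0.175, and with centred libraries its difference was 0.018 (adjusted p = 0.926).

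Each of the 3 lipid carrier genes rose, where 70.6% of the table did, and their median of 0.47 lay below the 0.52 of all 85 genes. *lbp-7*, a fatty acid-binding protein gene, had 72.2 and 71.0 RPKM in *hlh-11* KO and 34.2 and 35.5 RPKM in the wild type, so that both KO libraries were about 2 times the wild type. *dsc-4*, the gene for the large subunit of the microsomal protein (MTP) that loads triglyceride onto secreted lipoproteins, had 49.9 and 49.1 RPKM in KO and 35.1 and 36.0 RPKM in the wild type. *npa-1*, which encodes a polyprotein cut into fatty acid-binding units, had 144 and 134 RPKM in KO and 103.7 and 99.4 RPKM in the wild type. Only the call of *lbp-7* passed in every alternative. That of *dsc-4* was lost without WT replicate 1 or WT replicate 2 (adjusted p = 0.0633 and 0.05003 from limma), when tested against its own spread and with centred libraries, and that of *npa-1* without KO replicate 1 (adjusted p = 0.0735) and with centred libraries. The table holds no gene of the lists for lipases and beta-oxidation or for fat synthesis, and those genes were not analysed here.

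Enzymes of intermediary metabolism numbered 2 and both rose, where 70.6% of the table did. *pck-1*, the phosphoenolpyruvate carboxykinase gene whose enzyme commits carbon to gluconeogenesis, had 85.2 and 69.5 RPKM in KO and 41.7 and 38.5 RPKM in the wild type, a log2 difference of 0.93. *bcat-1*, the aminotransferase gene that starts the breakdown of branched-chain amino acids, had 165 and 166 RPKM in KO and 131 and 124 RPKM in the wild type. KO replicate 1 was at 1.23 of KO replicate 2 for *pck-1* and at 0.99 for *bcat-1*, but the small change of *bcat-1*, 0.38, was the one lost without KO replicate 1, KO replicate 2 or WT replicate 2 (adjusted p = 0.0736 to 0.0871 from limma), and with centred libraries its difference was 0.040 (adjusted p = 0.812). Both transporters of the table rose as well, again beside 70.6% of the whole table. *slc-17.6*, a solute carrier gene, had 20.2 and 22.8 RPKM in KO and 14.3 and 14.3 RPKM in the wild type. *haf-9*, an ABC transporter gene of the intestinal gut granules, had 43.9 and 43.1 RPKM in KO and 34.3 and 30.8 RPKM in the wild type, and its call was lost without KO replicate 1 or WT replicate 2 (adjusted p = 0.0710 and 0.0765). With centred libraries neither transporter passed.

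The conjugation enzymes split. *ugt-50*, a UDP-glucuronosyltransferase gene, had 19.3 and 16.4 RPKM in *hlh-11* KO and 10.9 and 11.1 RPKM in the wild type, a log2 difference of 0.67. *gst-4*, a glutathione S-transferase gene widely used as a readout of the oxidative stress factor SKN-1, had 16.7 and 18.1 RPKM in KO and 34.4 and 27.5 RPKM in the wild type, and fell by 0.81. Both held in every alternative. Of the 4 genes of the stress and ageing list, *gst-4*, *dod-23* and *dod-24* fell, where 23.5% of the table did, and 1 rose. That one was *tts-1*, a long non-coding RNA known to accumulate in long-lived insulin-receptor mutants and the single non-coding gene of the table, which had 84.0 and 70.7 RPKM in KO and 26.5 and 21.2 RPKM in the wild type. Summed over the 4 genes, the list took 96.3 and 92.2 RPM in KO and 131 and 114 RPM in the wild type, lower in both KO libraries. *tts-1* lies on chromosome X of WBcel235 from 1504131 to 1504841, and its nearest libraries differed 2.67-fold.

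**Figure D3:**
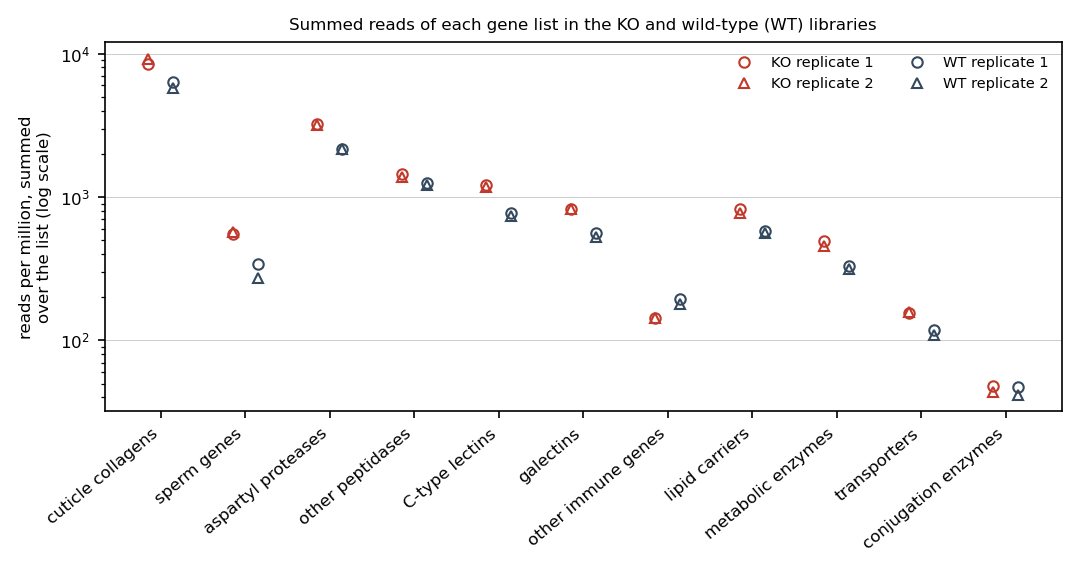
Recovered reads in RPM (log axis), summed over the members of 11 gene lists, in the KO libraries (red) and the wild-type (WT) libraries (dark blue); circles are replicate 1 and triangles replicate 2. The sums of the immune genes outside the lectins are lower in both KO libraries (143 and 144 against 195 and 179.6), those of the conjugation enzymes interleave, and the other 9 lists drawn are higher in both KO libraries.

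Of the 85 genes, 39 were in none of the lists. Of these 39, 23 were higher, 12 lower and 4 not past the threshold, beside 70.6% higher and 23.5% lower over the whole table. Several of the strongest changes were among the 39. *F21A3.11*, on chromosome V of WBcel235 from 15530783 to 15533212, had 22.8 and 21.9 RPKM in *hlh-11* KO and 4.53 and 3.86 RPKM in the wild type, a log2 difference of 2.28. *ccch-1*, a gene for a CCCH-type zinc finger protein of the RNA-binding kind, had 70.2 and 72.1 RPKM in KO and 19.7 and 17.3 RPKM in the wild type. *Y43F8C.3*, the gene of lowest level in the wild type, had 9.16 and 8.04 RPKM in KO and 2.13 and 2.301 RPKM in the wild type. All 3 stood at least 3.49-fold above the wild type in their nearest libraries. *rips-1* had 91.4 and 94.7 RPKM in KO and 30.4 and 28.3 RPKM in the wild type. *F21C10.10* had 58.4 and 55.8 RPKM in KO and 17.8 and 24.1 RPKM in the wild type, with wild-type replicate 1 at 0.736 of replicate 2. *sdz-24*, named as a SKN-1-dependent transcript of the zygote, rose by 1.38 on the log2 scale.

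Further genes outside the lists were named after their values were seen. *F54C9.3* had 173 and 189 RPKM in KO and 90.2 and 76.4 RPKM in the wild type. *F49C12.7* had 28.6 and 29.3 RPKM in KO and 13.8 and 11.8 RPKM in the wild type. *msrp-3* had 26.0 and 26.5 RPKM in KO and 12.1 and 10.6 RPKM in the wild type. With *lbp-7* and the 12 genes plotted as the largest increases, these 3 make up the 16 that were at least 2-fold higher. *adh-1*, an alcohol dehydrogenase gene, had 41.2 and 41.8 RPKM in KO and 21.5 and 20.4 RPKM in the wild type. *eef-1A.2*, which encodes a translation elongation factor, had 472 and 434 RPKM in KO and 288 and 282 RPKM in the wild type. *smd-1*, the S-adenosylmethionine decarboxylase gene of polyamine synthesis, had 153 and 148 RPKM in KO and 102 and 112 RPKM in the wild type. As in 98.8% of the table, the groups did not overlap in these genes, and *smd-1* was not called with centred libraries (adjusted p = 0.346 from limma). Apart from *crt-1* and *gas-1*, described further on, the other 9 increases outside the lists ran from 0.46 on the log2 scale for *C16B8.3* to 0.92 for *F26F12.3*, and 7 of them passed with any library left out. They include *test-1*, a gene for a testican-like proteoglycan, which had 219.7 and 219.6 RPKM in KO and 140.1 and 120.3 RPKM in the wild type. The call of *C16B8.3* was lost without KO replicate 1 (adjusted p = 0.0525), and that of *cal-5*, a calmodulin-like gene with a difference of 0.47, without KO replicate 2 or WT replicate 2 (0.0509 and 0.0661). With centred libraries *C16B8.3*, *cal-5* and the transthyretin-related gene *ttr-17* did not pass (adjusted p = 0.451, 0.415 and 0.0515).

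In the other direction, *F46F2.3* was the single abundant gene with a deep decrease. This gene of unnamed function, on chromosome X of WBcel235 from 15259579 to 15260287, had 39.9 and 30.1 RPKM in KO and 219 and 214 RPKM in the wild type, a log2 difference of -2.62. Its KO libraries held 434 and 357 reads, so the decrease does not rest on few counts. *Y57G11B.5* had 34.1 and 42.0 RPKM in KO and 101 and 86.2 RPKM in the wild type. *ZK105.1* had 57.4 and 53.96 RPKM in KO and 128 and 109 RPKM in the wild type. Each of these was at or below 0.53 of the nearest wild-type library. *W02D9.6*, with 67 to 179 reads per library, fell by 0.76. *Y62H9A.5* and its neighbour *ule-5*, a gene named for expression in the uterine lumen, fell by 0.60 and 0.54. For both of these KO replicate 1 was the lower library, at 103 against 129.8 RPKM in KO replicate 2 for *Y62H9A.5* and at 132 against 161 RPKM for *ule-5*. Without KO replicate 1 neither passed (adjusted p = 0.0505 and 0.0713 from limma).

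Most of the small decreases lost their call without this library, a fit that has KO replicate 2 alone on the KO side and a larger standard error. The loss of a call therefore does not show that KO replicate 1 carried the change. Without it *ule-5* was at -0.40 and *C27C7.1* at -0.41 on the log2 scale, against -0.54 and -0.41 with all libraries. Of the 20 genes lower in KO, 13 fell by less than 2-fold, and 10 of these lost their call without KO replicate 1 (adjusted p = 0.0505 to 0.206 from limma): *Y62H9A.5*, *ule-5*, *clec-10*, *asp-13* and, named after their values were seen, *T03D3.5*, *C27C7.1*, *srlf-7* and the neighbours *ZK813.1*, *ZK813.3* and *ZK813.7*. Without WT replicate 1, *clec-10*, *asp-13*, *srlf-7* and *ZK813.7* did not pass either, nor did *C27C7.1* without KO replicate 2 or WT replicate 2 (adjusted p = 0.0525 to 0.129). The log2 differences of the 10 genes with all libraries ran only from -0.60 to -0.38. *ZK813.3*, for example, had 93.4 and 108 RPKM in KO and 146 and 137 RPKM in the wild type. The 10 decreases that passed with any library left out were *dod-24*, *F46F2.3*, *irg-4*, *F55G11.2*, *dod-23*, *Y57G11B.5*, *ZK105.1*, *gst-4*, *W02D9.6* and *thn-2*. Of the increases, 46 of 60 passed with any library left out. No gene with a larger absolute difference than *Y62H9A.5* lost its call in this way.

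The smallest called increase was that of *crt-1*, which encodes the endoplasmic reticulum chaperone calreticulin. It had 1160.4 and 1009.95 RPKM in KO and 867 and 853 RPKM in the wild type, a log2 difference of 0.33 (adjusted p = 0.0378 from limma), and it did not pass without KO replicate 1, WT replicate 1 or WT replicate 2 (adjusted p = 0.0703 to 0.276), while with centred libraries its difference was -0.0032. *act-5*, the actin of intestinal microvilli and the single gene of the table on the lists of intestine markers and of muscle and actin genes, had 767 and 774 RPKM in KO and 596 and 613 RPKM in the wild type. Replicate 1 was at 0.99 of replicate 2 in KO and at 0.97 in the wild type, but at 0.35 its call was lost without any 1 of the 4 libraries (adjusted p = 0.0512 to 0.106), and with centred libraries its difference was 0.014 (adjusted p = 0.932). *gas-1*, which encodes a subunit of mitochondrial complex I and was named after its values were seen, had 99.999 and 99.1 RPKM in KO and 78.0 and 73.5 RPKM in the wild type, with a call lost without KO replicate 1, KO replicate 2 or WT replicate 2 (adjusted p = 0.0636 to 0.0783). With centred libraries the difference of *gas-1* was 0.056 (adjusted p = 0.731).

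All 5 genes that did not pass had lower means in *hlh-11* KO. *ttr-51*, a transthyretin-related gene, had 187 and 189 RPKM in KO and 223 and 199 RPKM in the wild type (log2 difference -0.17, adjusted p = 0.287 from limma). *D1054.10* had 231 and 296 RPKM in KO and 321 and 272 RPKM in the wild type (-0.18, adjusted p = 0.267). It was the only gene of the 85 whose libraries overlapped between groups, and without KO replicate 1 its difference was 0.0013. *T03F6.3* had 88.2 and 101 RPKM in KO and 121 and 107 RPKM in the wild type (-0.27, adjusted p = 0.0930). *T09B9.4* had 12.04 and 12.2 RPKM in KO and 14.9 and 14.9 RPKM in the wild type (-0.29, adjusted p = 0.0734). The replicates of *T09B9.4* were nearly equal, and tested against its own spread it passed (adjusted p = 0.0309). *ctsa-1.1*, given above, is the fifth.

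The size of the change ran against abundance in the wild type. The 85 genes were ranked by their mean wild-type RPKM and cut into a low, a middle and a high group. In the low group (28 genes, 2.22 to 29.3 RPKM) the median absolute log2 difference was 1.25 and 16 genes changed at least 2-fold. In the middle group (29 genes, 30.0 to 130.2 RPKM) it was 0.74 and 6 genes changed at least 2-fold. In the high group (28 genes, 134 to 2069 RPKM) it was 0.49, and *F46F2.3* was the 1 gene changed at least 2-fold. By direction, 20 genes were higher and 7 lower in the low group, 22 and 6 in the middle group, and 18 and 7 in the high group. Across the 85 genes the absolute difference and log2 wild-type RPKM had a Pearson r of -0.47 and a Spearman rho of -0.55, given as a description, since the points are genes of the same 4 libraries.

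Wild-type RPKM enters both the rank and the difference, so the order was repeated on other values. Ranked by KO RPKM, the low group had a median absolute difference of 0.87 with 12 genes changed at least 2-fold, the middle group 0.60 with 7, and the high group 0.66 with 4, so the low group still had the largest median while the others changed places. The high group by KO RPKM held 25 genes with a positive difference and 3 with a negative one. Ranked by all 4 libraries, the medians were 0.80, 0.77 and 0.57 from the low to the high group, and *col-95* and *col-180*, placed in the high group by their KO values, were its 2 genes changed at least 2-fold. With genes ranked by wild-type replicate 1 and compared with replicate 2 alone, so that no library served for both, the medians were 1.24, 0.82 and 0.49. With the wild-type libraries exchanged they were 1.205, 0.63 and 0.49. Every gene entered the table by its change in these libraries, and the part of that choice in this order was not tested.

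**Figure D4:**
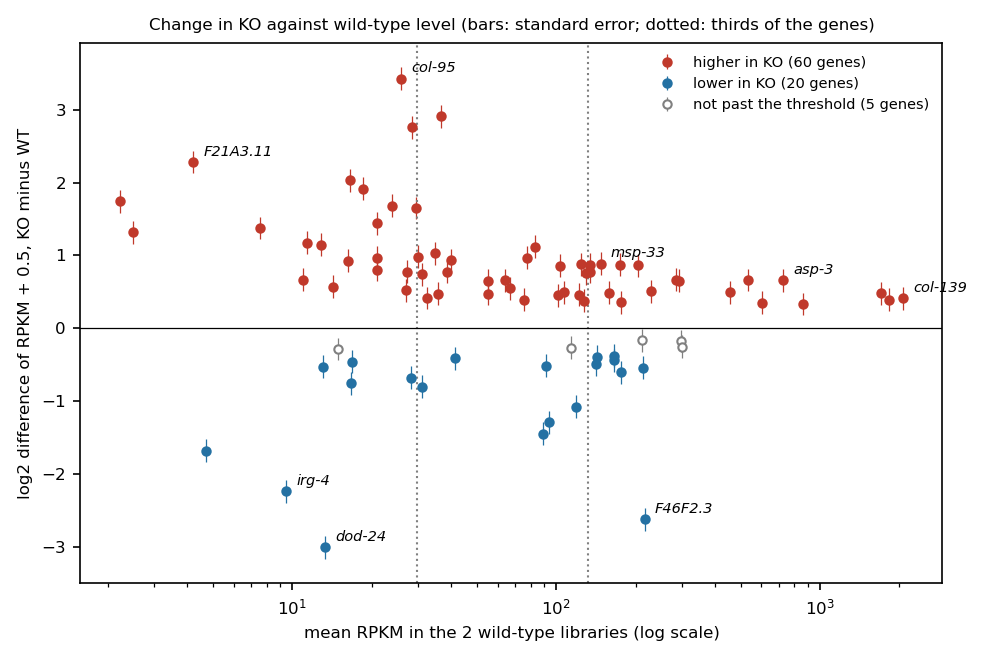
Log2 difference of RPKM + 0.5 (KO minus wild type) against mean wild-type RPKM (log axis) for the 85 genes, with the standard error of 0.16 as bars; red points were higher in KO, blue lower and open points not past the threshold, and dotted lines part the low, middle and high groups. Differences of at least 1 on either side lie left of the second dotted line in 16 genes of the low and 6 of the middle group, and right of it in *F46F2.3* alone, at -2.62.

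In total the 85 genes took a larger share of the reads in *hlh-11* KO, 2.39% and 2.43% of the library totals, against 1.80% and 1.69% in the wild type. In each of the 4 libraries the 5 genes with the highest wild-type RPKM (*col-139*, *col-129*, *col-81*, *crt-1* and *asp-3*) held 45.7% to 47.4% of these reads. The wild-type libraries were shifted against each other, with replicate 1 above replicate 2 in 66 of the 85 genes and a median ratio of 1.08. In the KO libraries replicate 1 was above replicate 2 in 36 genes, with a median ratio of 0.99. The median absolute log2 gap between replicates was 0.10 in KO and 0.13 in the wild type, against a median absolute difference between the groups of 0.68.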

How the data were processed

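Polyadenylated RNA of whole worms was sequenced. The authors aligned reads to WBcel235 with TopHat2, called genes with DESeq2 and deposited RPKM values for 85 genes; the counting method and its use of strand are not given in the sources used. The submitters' processing notes also name FastQC 0.11.5. All 85 identifiers matched a symbol in the WBcel235 annotation. All 510 values were whole reads, within 0.0001 reads, given a total for each library and a length for each gene (median 1.01 times the annotated exon length). This length was within 10% of the annotated one in 61 genes, and ran from 0.64 times it for *clec-85* to 1.72 times for *W02D9.6*. The RPKM level and abundance rank of such genes rest on these lengths. The library totals, 16538554 to 24023096, may count mapped or assigned reads.

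limma 3.58.1 (R 4.3.3; lmFit and eBayes, two-sided) was fitted to log2(RPKM + 0.5) in all 6 libraries with the contrast KO minus wild type. Adjustment was by Benjamini-Hochberg across all 85 genes (threshold 0.05). The pooled SD was 0.16, and a gene alone has 3 residual degrees of freedom. The recovery and the fit were tested on simulated data. Columns named control were taken as the wild type, the one group that is not a case. No gene was filtered out. For each gene the deviation of a library from its group mean was taken on the log2 scale. Between same-numbered libraries these deviations had correlations of -0.14 (KO and wild type), -0.11 (OE and wild type) and -0.13 (KO and OE). Replicate numbers were therefore not used as pairs.

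Alternatives were other pseudocounts, fewer libraries, a replicate block, other treatments of the spread, limma voom on the recovered reads, a filter at 5 RPKM, centring and leaving out each library. Named by rule were the 12 largest increases and 12 largest decreases, up to 4 members of each gene list, the 5 genes of highest and 5 of lowest wild-type RPKM, and every gene that did not pass or overlapped between groups, 59 genes in all. The largest increases and decreases were taken from genes past the threshold that did not overlap between groups. The genes, the lists and this rule were chosen with earlier results of these data known. Lists for neuron markers, oocyte and yolk, lipases and beta-oxidation, and fat synthesis had no member in the table. Promoter sequences were not analysed here.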

Additional observations from a re-analysis of the deposited data

How the results depend on the processing

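The number of genes higher in *hlh-11* KO was 58 to 60, and of genes lower 20 to 22, with pseudocounts of 0.1 and 1, the KO and wild-type libraries alone, no empirical Bayes (58 and 21), limma-trend, limma voom on the recovered reads and a minimum of 5 RPKM. Median-centred libraries, whose reference is the chosen genes themselves, gave 38 higher and 25 lower. Leaving out 1 library gave 50 to 56 higher and 10 to 19 lower, the fewest without KO replicate 1 in both cases. No genes gained a call in a leave-one-out fit. The replicate number as a block left 59 higher and 20 lower, and *crt-1* was the 1 call lost. In the KO and wild-type libraries alone, the block gave 60 and 20 and crossed numbers 60 and 23, both chosen after seeing the data.

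With centred libraries the numbers higher in KO were 4 of 7 collagens, 1 of 4 other peptidases, 1 of 3 galectins, 1 of 7 immune genes, 1 of 3 lipid carriers, 1 of 2 metabolic enzymes and 0 of 2 transporters, and 1 other peptidase was lower. That peptidase, *ctsa-1.1*, was also lower (1 gene) in the fit of KO and wild type only, without empirical Bayes, with limma-trend and with voom. Without empirical Bayes 1 immune gene was higher. Leaving out 1 library gave 4 to 7 collagens, 1 to 3 other peptidases, 1 to 2 metabolic enzymes and 1 to 2 transporters higher, and 0 to 1 aspartyl proteases and 0 to 1 C-type lectins lower. The sign turned for *crt-1* with centring (-0.0032) and for *D1054.10* without KO replicate 1 (0.0013; -0.35 to 0.0013 over the leave-one-out fits).

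The median difference of the low-abundance group was 0.44 when ranked by KO and 0.62 when ranked by KO and wild type, against 0.95 when ranked by the wild type, and its median absolute difference was 0.87 and 0.80 in place of 1.25. The median and the median absolute difference of the high group were both 0.66 when ranked by KO. With 1 library left out, the median absolute difference of the low group was 1.06 to 1.27 and the median of the middle group 0.48 to 0.78. The causes were not tested. Depth limits *dod-24*, *irg-4* and *F55G11.2* most, with 16 to 42 reads per KO library.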

Other observations

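Some features of the genes are given as values without a test, beside annotated genes that were not limited to those expressed in these worms. Of the 85 genes, 20 lie on chromosome X, among them the non-coding *tts-1*. That is 23.5% of the table, against 13.7% of the annotated protein-coding genes of WBcel235. Chromosome I holds 5 of the genes (5.88% against 14.4%) and chromosome III another 5 (5.88% against 13.2%). Of the 25 genes with a lower mean in *hlh-11* KO, 8 lie on chromosome IV (32%), which holds 16 genes or 18.8% of the table. Another 7 of the 25 lie on chromosome X (28%), near its 23.5% of the table. The 8 on chromosome IV include *dod-24*, *irg-4*, *F55G11.2*, *thn-2* and *gst-4*.

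Within 30000 bp of each other stood 6 pairs made of 9 genes, and in all 6 both members had the same sign. With 60 of the 85 genes higher in mean and 25 lower, many pairs drawn from the table would share a sign. The *ZK813* pairs also share their members, so the 6 are not separate instances. *dod-24* and *F55G11.2* lie 26090 bp apart with log2 differences of -3.01 and -1.68. *Y62H9A.5* and *ule-5* lie 226 bp apart on opposite strands, at -0.60 and -0.54, and *ZK813.1*, *ZK813.3* and *ZK813.7*, named after their values were seen, lie within 3852 bp of each other at -0.52, -0.49 and -0.44. *msp-49* and *msp-50* lie 5047 bp apart, at 0.86 and 0.87. Whether counting used strand is not given, and neighbours or related copies may share reads.

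The median coding length was 225 residues for the 25 genes with a lower mean in KO and 349 residues for the 59 protein-coding genes with a higher mean, against 329 over all annotated protein-coding genes. Single-exon genes were 16.9% of those with a higher mean and 8% of those with a lower mean, against 3.49% of all annotated protein-coding genes, and 5 of the 10 single-exon genes with a higher mean were *msp* genes.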
